A study of Homo sapiens with 6 samples.

Results

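The genes described here are 44 genes of autophagy and of the lysosome, out of 58735 genes listed for each library. They were given as a list of symbols, each of which matched 1 row in every library. RNA was sequenced from MUM2B, a cell line that the labels call melanoma, in 2 groups of 3 libraries each. The control cells stably carried an empty vector, and the other cells a vector that overexpresses LACTB, a mitochondrial protein described as a tumour suppressor. Both groups share the line, a serum-containing RPMI medium and the absence of any further treatment. Whether each stable line was a pool or 1 clone, and whether the replicates were separate cultures, the labels do not say, so the spread behind each p-value may be technical.

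Autophagy encloses part of the cytoplasm in a double membrane and delivers it to the lysosome, where acid hydrolases break it down. The ULK1 kinase complex starts the process, a phosphatidylinositol 3-kinase complex around beclin 1 marks the membrane, and a ubiquitin-like reaction attaches proteins of the ATG8 family to it, which receptors such as SQSTM1 (p62) bind together with their cargo. Lysosomes are acidified by the V-ATPase proton pump. Many of their genes are controlled by TFEB, TFE3 and MITF, transcription factors that bind the E-box CACGTG and that the kinase mTORC1 keeps in the cytoplasm when nutrients are plentiful.

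The libraries held 16978799 to 18395631 reads in genes. FPKM is a read count divided by exon length and by an effective size of the library. That size was 0.983 to 1.02 times the reads in genes of the same library. Throughout, ± gives the SD of 3 libraries. LACTB itself was listed at 3.97 ± 0.675 FPKM with empty vector and at 168.2 ± 6.28 FPKM in the overexpressing cells. Reads of its own gene and of the introduced copy were counted together. Empty vector replicate 3 stood apart, with 3.61% of its reads in mitochondrially encoded genes against 4.65% to 5.62% in the other libraries. All 7 melanocyte markers looked at, MITF among them, lay under 1 FPKM in every library, and their levels added up to 1.26 to 1.34 FPKM in control and 1.70 to 2.13 FPKM in LACTB cells. The part of these markers in the results was not tested. All 11 leukocyte markers also lay under 1 FPKM, with TYROBP, AIF1 and CD3E among those at 0 in all libraries and sums of 0.36 to 0.474 and 0.382 to 0.526 FPKM. The same held for 7 fibroblast markers, with sums of 0.417 to 0.459 and 0.364 to 0.444 FPKM.

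More of these genes were higher than lower in LACTB cells. Testing covered the 40 genes whose mean reached 1 FPKM; 20 rose, 6 fell and 14 did not pass (limma on log2(FPKM + 1), Benjamini-Hochberg adjusted p under 0.05 over all tested genes). Among all 11875 tested genes, 14.8% rose and 17.2% fell, or 32.0% in either direction. GABARAP, ULK2, TFEB and CTSS lay under the limit. The median log2 fold change was 0.14 for the 40 genes and -0.01 for all tested genes. Every LACTB library exceeded every empty vector library for 21 of the 40 genes, against 22.3% of all tested genes, and all lay below for 7, against 25.1%. Most changes were small: SQSTM1 alone reached a log2 fold change of 1 on this scale, at 2.10-fold by the ratio of mean FPKM. The number that rose was 12 without LACTB replicate 2 and 13 without LACTB replicate 3. Of the 20 risen genes, 11 kept their call under all 17 alternative settings: SQSTM1, MAP1LC3B, BECN1, ATG14, ATG3, ATG16L1, LAMP1, CTSD, CTSL, GAA and PSAP. Of the 6 that fell, LAPTM4B, LAPTM5 and ATP6V1A did. Among the 17, median-of-ratios scaling had the same factor, 1.0048, in every library, so it could hardly change a call. The number that fell was 3 when the values were rescaled to TPM. With no filter on low values, ULK1, ATG13, MCOLN1, CTSA, NEU1, GRN, WIPI1 and GABARAPL1 lost their calls (limma, adjusted p = 0.0596 to 0.114).

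**Figure D1:**
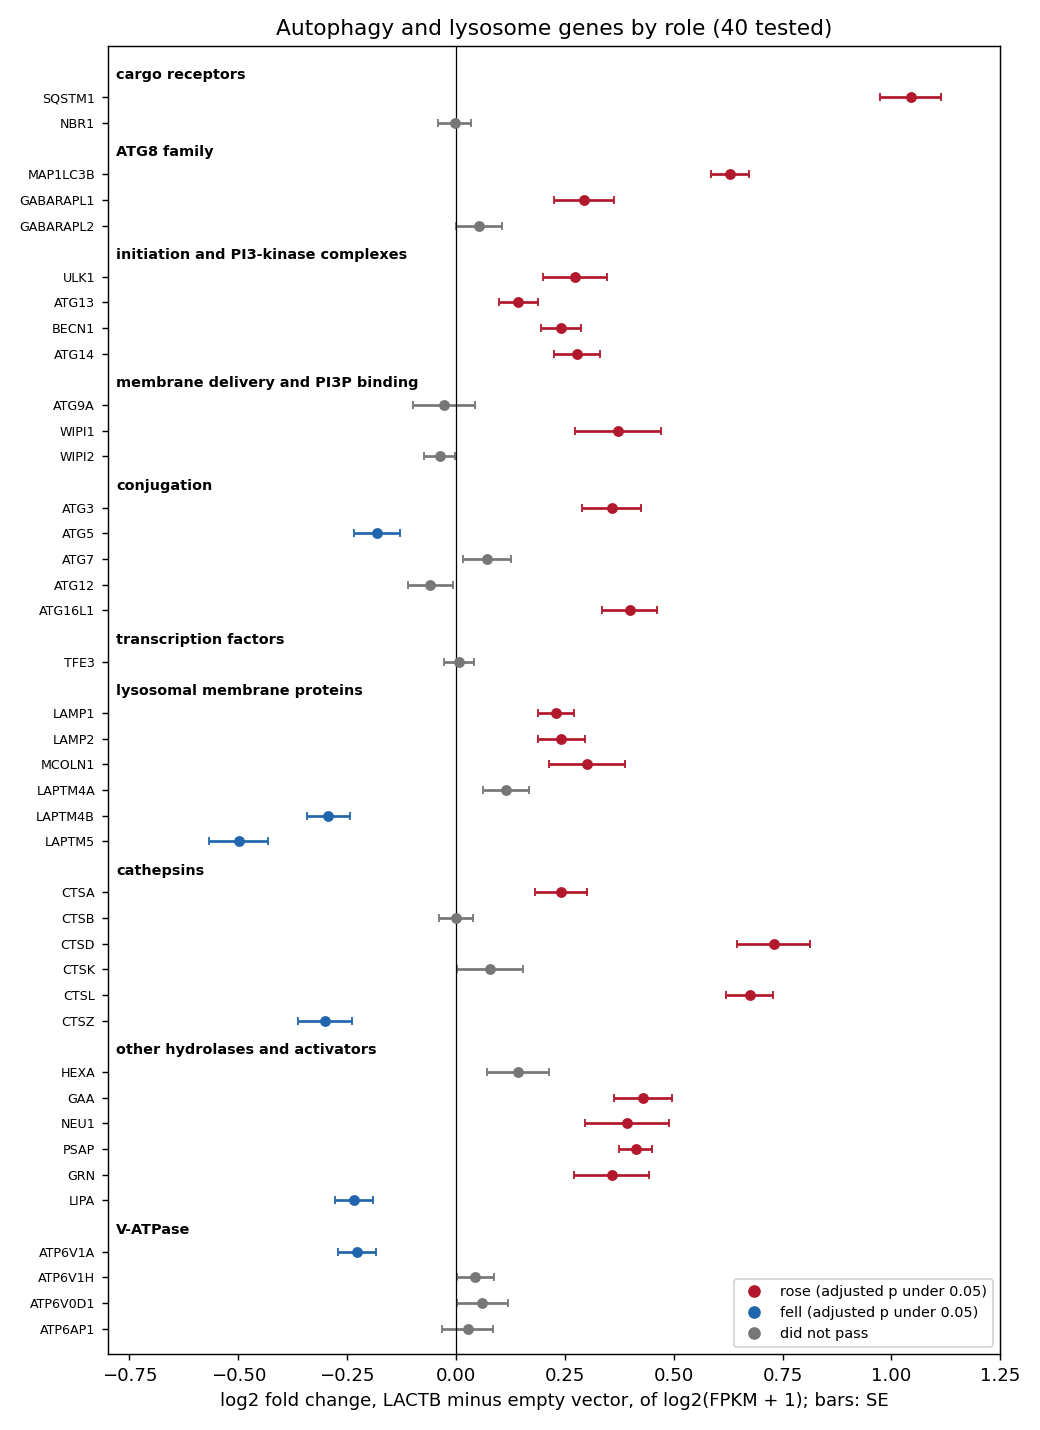
Log2 fold change (LACTB minus empty vector, of log2(FPKM + 1), x axis) of the 40 tested genes, ordered by role, with bars for the SE of the limma fit. The 20 genes in red rose, the 6 in blue fell and the 14 in grey did not pass; SQSTM1 lies farthest to the right at 1.04 and LAPTM5 farthest to the left at -0.50.

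The sequence before the gene start was looked at because CACGTG is the core of the site that TFEB and its relatives bind at lysosomal genes. RefSeq windows (GRCh38.p14) from 250 bases before to 50 bases after the start were at hand for 35 of the 44 genes, 44 windows in all. A window with CACGTG, which reads the same on both strands, was found for 9 of the 35 genes, or 25.7%, against 8.77% of all 27305 genes with a window and 12.9% of the 8350 of them that were tested. Genes with several windows have more chances of a match. Stretches upstream of the start are printed for these 9 genes, 5′ to 3′ on the strand of the gene, ending at the last base before the start, with each complete CACGTG in capitals.
LAMP1, chr13:113297039-113297238, plus strand: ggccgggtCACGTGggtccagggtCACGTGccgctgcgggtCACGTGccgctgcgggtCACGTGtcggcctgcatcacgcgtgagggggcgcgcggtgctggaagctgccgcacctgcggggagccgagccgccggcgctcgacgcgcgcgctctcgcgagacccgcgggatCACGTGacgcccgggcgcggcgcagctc
MCOLN1, chr19:7522524-7522623, plus strand: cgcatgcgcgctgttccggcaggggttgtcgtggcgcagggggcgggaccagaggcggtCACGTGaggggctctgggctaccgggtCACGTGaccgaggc
CTSD, chr11:1763928-1764027, minus strand: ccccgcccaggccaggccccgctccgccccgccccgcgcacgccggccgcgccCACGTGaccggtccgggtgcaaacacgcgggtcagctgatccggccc
CTSA, chr20:45891235-45891334, plus strand: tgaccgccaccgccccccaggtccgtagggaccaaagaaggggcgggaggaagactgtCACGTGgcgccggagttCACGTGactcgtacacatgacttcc
GAA, chr17:80101481-80101580, plus strand: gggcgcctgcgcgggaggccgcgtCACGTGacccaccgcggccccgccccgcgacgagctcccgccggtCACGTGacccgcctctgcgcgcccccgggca
NEU1, chr6:31862822-31862971, minus strand: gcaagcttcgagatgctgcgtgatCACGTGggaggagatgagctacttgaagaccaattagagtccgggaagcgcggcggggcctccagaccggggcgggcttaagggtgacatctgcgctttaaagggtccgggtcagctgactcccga
ATG3, chr3:112561963-112562062, minus strand: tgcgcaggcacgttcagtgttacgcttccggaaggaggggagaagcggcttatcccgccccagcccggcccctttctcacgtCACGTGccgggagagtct
ATG14, chr14:55411831-55411930, minus strand: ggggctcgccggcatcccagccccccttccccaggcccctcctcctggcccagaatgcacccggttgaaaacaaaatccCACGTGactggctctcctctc
ATP6V0D1, chr16:67481158-67481257, minus strand: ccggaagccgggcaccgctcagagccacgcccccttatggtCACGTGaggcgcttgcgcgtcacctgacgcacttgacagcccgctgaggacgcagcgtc

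LAMP1 had the most copies, 6 in its window, of which 5 lie before the start. MCOLN1, CTSA, GAA and ATG3 had 2 each, and the others 1. The 9 genes code for 6 lysosomal proteins (LAMP1, MCOLN1, CTSD, CTSA, GAA and NEU1), a subunit of the proton pump and 2 autophagy factors. Of the 9, 8 rose, none fell and ATP6V0D1 did not pass. Among the 23 tested genes of the list whose windows lack CACGTG, 10 rose and 4 fell. The median log2 fold change was 0.30 over the 9 genes and 0.07 over the 23. The motif was searched after the calls were seen, so this split is no independent test. The number of risen genes among the 9 was 5 without empty vector replicate 2, without LACTB replicate 2 or without LACTB replicate 3, and 6 without empty vector replicate 3. It was also 5 with no filter, with the replicate block and at an adjusted p under 0.01.

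Over all tested genes with a window, 17.5% of 1081 with CACGTG and 15.1% of 7269 without it rose. In a wider list of 163 autophagy and lysosome genes described below, 6 of 19 tested genes with CACGTG rose and 22 of 84 without it. A match is only a string of letters, and nothing here measures binding. SQSTM1, which had the largest log2 fold change of the tested genes in the list, has no CACGTG in any of its windows. Neither SQSTM1 nor any other of the 35 genes holds TGATGNAA, the core of the element that ATF4 binds, on either strand. It was found for only 4.46% of all genes with a window and 2.60% of those tested, so its absence from 35 genes says little. Of the 217 tested genes that hold it 27.2% rose, against 15.0% of those that do not. The part of ATF4 in these data was not tested.

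**Figure D2:**
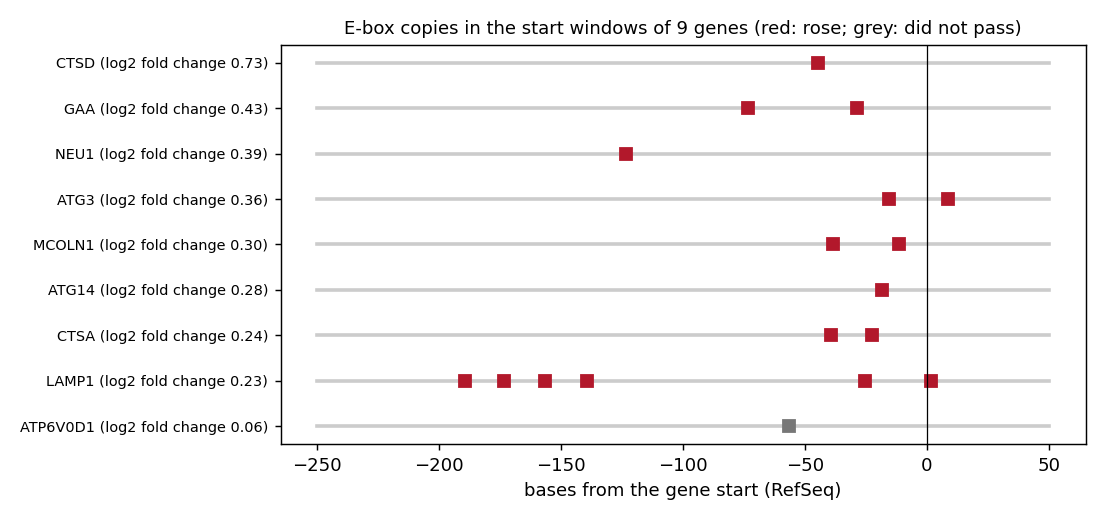
Position of each E-box copy (squares, x axis in bases from the RefSeq gene start at 0) in the windows of the 9 genes that hold one, ordered by their log2 fold change. The 8 genes in red rose and ATP6V0D1, in grey, did not pass; 4 of the 6 copies of LAMP1 lie together far upstream, and all other copies but that of NEU1 lie within 80 bases of the start.

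A second motif was also searched, TGACNNNGC, the core of the element bound by NRF2, the factor of the antioxidant response, whose known targets include SQSTM1. Over both strands it was found for 9 of the 35 genes, or 25.7%, against 16.1% of all genes with a window and 19.5% of those tested. SQSTM1 has no match in its 3 windows, which reach only from 250 bases before to 50 bases after each start. Sites outside the windows were not searched. The stretches of CTSL and MAP1LC3B are printed because, after SQSTM1 and CTSD, they had the largest log2 fold changes of the list, and they hold this motif and lack CACGTG. The capitals mark the motif, which in CTSL lies on the opposite strand and so appears as its reverse complement.
CTSL, chr9:87726019-87726118, plus strand: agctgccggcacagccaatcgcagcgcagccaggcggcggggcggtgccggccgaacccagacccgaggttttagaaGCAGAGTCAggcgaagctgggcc
MAP1LC3B, chr16:87392236-87392335, plus strand: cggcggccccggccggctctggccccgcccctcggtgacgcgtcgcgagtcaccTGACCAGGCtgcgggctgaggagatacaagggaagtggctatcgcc
Of the 9 genes with this motif, 6 rose and 2 fell, and of 23 tested genes without it 12 rose and 2 fell. Over all tested genes with a window, 16.6% of 1625 with it and 15.1% of 6725 without it rose.

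Among the cargo receptors, which tie ubiquitin-marked cargo to the forming membrane, SQSTM1 rose and NBR1 did not pass. SQSTM1 (ENSG00000161011; GRCh38 chromosome 5, 179806398 to 179838078) was listed at 35.7, 34.4 and 31.8 FPKM with empty vector and at 65.0, 72.3 and 76.2 FPKM with LACTB. The lowest LACTB library lay far above the highest empty vector library, and the spread was wider among the LACTB libraries. Its log2 fold change was 1.04 (limma, SE 0.070, adjusted p = 9.92e-05), rank 84 from the top among the 11875 tested genes. Of its exon bases, 20.7% overlap MRNIP on the opposite strand, which was listed at 1.64 and 2.44 FPKM in the 2 groups. NBR1, which has a similar domain layout to SQSTM1, was at 28.2 ± 0.688 and 28.1 ± 0.416 FPKM (limma, adjusted p = 0.958), and the sign of its small difference changed with the scaling.

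The ATG8 family are the small ubiquitin-like proteins that are attached to the lipid of the membrane and that receptors bind. MAP1LC3B, the LC3 protein used as the standard marker of autophagosomes (ENSG00000140941; chromosome 16, 87383995 to 87404779), was at 20.2, 19.5 and 18.9 FPKM with empty vector and 31.8, 29.8 and 30.7 FPKM with LACTB. The groups did not overlap, and the rise was 1.57-fold (log2 fold change 0.63, SE 0.043; limma, adjusted p = 0.000109). Its near-identical copy MAP1LC3B2 was listed at 0.979 ± 0.123 and 1.84 ± 0.551 FPKM, and reads of these copies cannot be told apart with certainty. GABARAPL1 was at 10.6, 9.48 and 11.7 FPKM and at 13.2, 13.3 and 13.0 FPKM. All LACTB libraries were above the others, with a narrower spread, and the rise was 1.24-fold (log2 fold change 0.29; limma, adjusted p = 0.0179). That call was lost without LACTB replicate 1 (adjusted p = 0.0502) or LACTB replicate 2 (adjusted p = 0.0623), as TPM (adjusted p = 0.0603) and without a filter (adjusted p = 0.0614).

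GABARAPL2 overlapped between the groups, at 16.6 ± 1.11 and 17.2 ± 0.128 FPKM (limma, adjusted p = 0.488). GABARAP, the namesake of its branch, was listed at 0.276 to 0.686 FPKM with empty vector and 0.333 to 0.682 FPKM with LACTB, from 59 and 60 reads per group, and was not tested. In the annotation, 73.1% of its coding bases lie in exons of a second gene on the same strand, AC120057.2, which itself had 1 read over all libraries. How the authors treated reads shared by overlapping genes is not given in the sources used here, so the level of GABARAP is uncertain.

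The 4 family members together came to 47.2 ± 2.03 FPKM in control and 61.7 ± 0.991 FPKM in LACTB cells. This sum, and so every share of it, includes GABARAP at its uncertain listed level. MAP1LC3B made up 42.3%, 43.4% and 38.6% of this sum in the empty vector libraries and 50.7%, 49.0% and 49.98% in the LACTB libraries. GABARAPL2 went from 34.8%, 34.4% and 36.2% to 27.2%, 28.5% and 28.1%. Neither share overlapped between the groups (exact two-sided permutation p = 0.1 for each, adjusted p = 0.2 over the 4 shares), and 0.1 is the smallest p that 3 against 3 libraries allow. The shares add up to the whole, and the FPKM of GABARAPL2 itself overlapped, so its lower share is not a difference separate from the rise of MAP1LC3B. GABARAPL1 held 22.4% ± 1.37 and 21.3% ± 0.497 (exact permutation p = 0.3). GABARAP held 1.02% ± 0.414 and 0.798% ± 0.272 (exact permutation p = 0.5), with the limit on its counting given above.

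**Figure D3:**
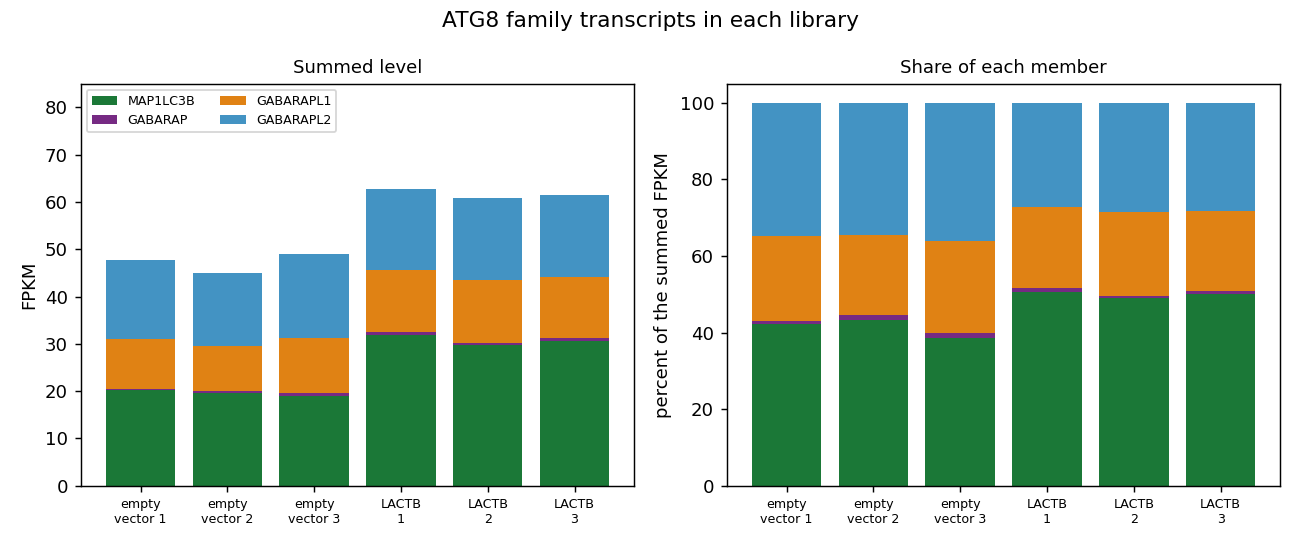
FPKM of the 4 ATG8 family genes stacked for each library (left) and the percent of their summed FPKM taken by each (right), for empty vector replicates 1 to 3 and LACTB replicates 1 to 3. The sum is higher in the 3 LACTB libraries, with the level of GABARAP uncertain. MAP1LC3B (green) takes 49.0% to 50.7% in those libraries against 38.6% to 43.4% with empty vector, and GABARAPL2 (blue) takes less.

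All 4 tested genes of the starting complexes in the list rose, each by a small amount, against 14.8% of all tested genes. Of further genes of these complexes in the wider list below, RB1CC1, ATG101, PIK3C3 and PIK3R4 did not pass (limma, adjusted p = 0.0632, 0.308, 0.704 and 0.983). NRBF2 rose. ATG14, the subunit that directs the beclin 1 complex to autophagy, was at 6.71, 6.57 and 6.11 FPKM with empty vector and at 8.46, 7.86 and 7.81 FPKM with LACTB. No library of one group reached the other, and the rise was 1.245-fold (log2 fold change 0.28, SE 0.053; limma, adjusted p = 0.00783). BECN1, which encodes beclin 1, rose 1.196-fold from 12.1 ± 0.601 to 14.5 ± 0.216 FPKM. ULK1, the starting kinase, was at 4.24, 4.21 and 3.98 FPKM and at 4.73, 5.11 and 5.85 FPKM. Its LACTB libraries were all higher but spread more widely (1.26-fold; log2 fold change 0.27; limma, adjusted p = 0.0282). ATG13, the scaffold of the ULK1 complex, rose 1.11-fold from 11.6 ± 0.501 to 12.9 ± 0.0948 FPKM (limma, adjusted p = 0.0441). The calls on ATG13 and ULK1 changed in most fits with 1 library less. ATG13 lost its call without any 1 of the 6 libraries (adjusted p = 0.0503 to 0.129), and ULK1 without any library but LACTB replicate 1 (adjusted p = 0.0578 to 0.0709). The kinase paralogue ULK2 had no read with empty vector and 4 reads with LACTB, and was not tested.

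Of the genes for membrane delivery and for binding of phosphatidylinositol 3-phosphate, 1 of 3 rose. WIPI1, a lipid-binding propeller protein, was at 2.82, 3.01 and 2.95 FPKM with empty vector and at 3.57, 4.94 and 3.84 FPKM with LACTB. LACTB replicate 2 was the highest by some way, and all 3 lay above the empty vector libraries (1.41-fold; log2 fold change 0.37, SE 0.099; limma, adjusted p = 0.0273). Its call was lost without empty vector replicate 1 (adjusted p = 0.0735), 2 (0.0595) or 3 (0.0575), without LACTB replicate 3 (adjusted p = 0.0523) and without a filter (adjusted p = 0.0966). WIPI2, its relative that recruits the conjugation machinery, was at 21.4 ± 0.178 and 20.8 ± 0.264 FPKM, and ATG9A, the membrane protein of the seed vesicles, at 5.59 ± 0.541 and 5.45 ± 0.245 FPKM. Neither passed (limma, adjusted p = 0.454 and 0.797). In ATG9A, 30.3% of the coding bases lie in exons of another gene on the same strand, AC068946.2. Of the exon bases of WIPI1, 24.3% overlap ARSG on the opposite strand, which was listed at 0.655 and 0.844 FPKM in the 2 groups.

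The conjugation genes, which attach ATG8 proteins to lipid, divided. ATG16L1, which anchors the conjugating complex to the membrane, was at 4.66, 5.003 and 4.24 FPKM with empty vector and at 6.63, 6.52 and 6.12 FPKM with LACTB. The groups were well apart (1.39-fold; log2 fold change 0.40, SE 0.063; limma, adjusted p = 0.00388). ATG3, the E2-like enzyme, was at 9.40, 9.61 and 10.5 FPKM and at 14.1, 12.2 and 12.4 FPKM. All LACTB libraries were higher, LACTB replicate 1 most (1.31-fold; log2 fold change 0.36; limma, adjusted p = 0.00733). ATG5, the partner of ATG16L1, went the other way, from 12.7 ± 0.487 to 11.04 ± 0.61 FPKM, 1.15-fold lower (limma, adjusted p = 0.0366). The fall of ATG5 was lost in 11 of 17 alternatives, among them without any 1 library other than LACTB replicate 1 (adjusted p = 0.0575 to 0.106). The E1-like enzyme gene ATG7 and the ubiquitin-like ATG12 overlapped between the groups, at 5.34 ± 0.354 and 5.65 ± 0.112 FPKM and at 9.99 ± 0.46 and 9.55 ± 0.43 FPKM (limma, adjusted p = 0.368 and 0.429).

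Neither listed transcription factor of these genes passed at the RNA level. TFE3 was listed at 24.5, 24.7 and 24.6 FPKM with empty vector and at 24.7, 24.9 and 24.6 FPKM with LACTB. The values of the groups interleaved within a narrow band (log2 fold change 0.01, SE 0.034; limma, adjusted p = 0.899). TFEB was at 0.755, 0.449 and 0.737 FPKM and at 0.42, 0.473 and 0.63 FPKM, from 196 and 153 reads per group. Those groups overlapped, and the gene lay under the limit for testing. By FPKM, TFE3 was thus the more abundant of the 2 transcripts in every library. The place and activity of these proteins in the cell were not measured.

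Of the 6 lysosomal membrane proteins, 3 rose and 2 fell. LAMP1 and LAMP2 are the most abundant glycoproteins of the lysosomal membrane. LAMP1 was at 46.4, 45.2 and 43.998 FPKM with empty vector and at 51.1, 54.1 and 54.2 FPKM with LACTB. The groups did not overlap, and the rise was 1.177-fold (log2 fold change 0.23, SE 0.042; limma, adjusted p = 0.00681). LAMP2 was at 28.1, 29.1 and 25.6 FPKM and at 33.0, 33.7 and 31.7 FPKM. Its LACTB libraries were again all higher (1.19-fold; log2 fold change 0.24; limma, adjusted p = 0.0154), and without LACTB replicate 2 its adjusted p was 0.0624. MCOLN1, the calcium channel mucolipin 1, was at 2.67, 2.31 and 2.05 FPKM and at 2.82, 3.26 and 3.26 FPKM. The lowest LACTB library stood only just above the highest empty vector library (1.33-fold; log2 fold change 0.30; limma, adjusted p = 0.0365). That call was lost without empty vector replicate 2 (adjusted p = 0.0892) or 3 (0.0842) and without LACTB replicate 2 (0.114) or 3 (0.109).

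Of the 3 LAPTM genes, which encode lysosomal proteins that span the membrane several times, LAPTM5 and LAPTM4B fell and LAPTM4A did not pass. LAPTM5 (ENSG00000162511; chromosome 1, 30732469 to 30757820) was at 35.4, 35.2 and 29.9 FPKM with empty vector and at 23.2, 23.1 and 23.8 FPKM with LACTB. The LACTB libraries were tightly grouped below all others, and this was the largest fall in the list (1.44-fold lower; log2 fold change -0.50, SE 0.067; limma, adjusted p = 0.00194). LAPTM5 is known mainly from blood cells, whose markers lay under 1 FPKM here in both groups, as given above. LAPTM4B was at 160.3, 149.6 and 146 FPKM and at 122, 128 and 122 FPKM. Its groups did not overlap either (1.23-fold lower; log2 fold change -0.29; limma, adjusted p = 0.00481). The paralogue LAPTM4A was at 91.4 ± 2.90 and 99.1 ± 5.87 FPKM. Its groups did not overlap, with the LACTB libraries higher, but it did not pass (limma, log2 fold change 0.11, adjusted p = 0.148). With voom on recovered reads its adjusted p was 0.0369 at a log2 fold change of 0.15.

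Cathepsins, the lysosomal proteases, divided as well: of 6 tested, 3 rose, 1 fell and 2 did not pass. CTSL, cathepsin L (ENSG00000135047; chromosome 9, 87725519 to 87731393), was at 33.2, 31.2 and 35.2 FPKM with empty vector and at 51.5, 54.7 and 54.4 FPKM with LACTB. No value of one group came near the other (1.61-fold; log2 fold change 0.67, SE 0.054; limma, adjusted p = 0.000202). CTSD, the aspartic protease cathepsin D (ENSG00000117984; chromosome 11, 1752752 to 1764573), was at 9.95, 9.41 and 8.005 FPKM and at 14.8, 15.4 and 17.0 FPKM. This was the second largest log2 fold change in the list (1.73-fold; 0.73, SE 0.084; limma, adjusted p = 0.000987). As in GABARAP, 87.8% of the coding bases of CTSD lie in exons of another gene on the same strand, AC068580.4, which had 1 and 8 reads in the 2 groups, so the level of CTSD is uncertain too. CTSA, which encodes the protective protein of the lysosomal sialidase, rose 1.199-fold from 9.82 ± 0.76 to 11.8 ± 0.302 FPKM (limma, adjusted p = 0.0201). The call on CTSA was lost without empty vector replicate 2 (adjusted p = 0.0508), LACTB replicate 2 (0.0581) or LACTB replicate 3 (0.0678).

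CTSZ, the carboxypeptidase cathepsin Z, moved against these. It was at 102, 98.5 and 113 FPKM with empty vector and at 79.9, 87.0 and 86.8 FPKM with LACTB, and fell 1.24-fold (log2 fold change -0.30, SE 0.062; limma, adjusted p = 0.011), a call lost as TPM (adjusted p = 0.0756). CTSB, cathepsin B, overlapped between the groups, at 86.7 ± 1.27 and 86.6 ± 2.49 FPKM (limma, adjusted p = 0.989). CTSK, best known from osteoclasts, was low at 1.75 ± 0.102 and 1.90 ± 0.179 FPKM (limma, adjusted p = 0.474). CTSS, the cathepsin of antigen-presenting cells, was at 0.524, 0.456 and 0.341 FPKM and at 0.888, 0.962 and 1.05 FPKM, from 100 and 218 reads per group. Its groups did not overlap, and its ratio of mean FPKM was 2.20-fold, above that of SQSTM1. Its mean was under the limit for testing, but without that filter it passed (limma, log2 fold change 0.45, adjusted p = 0.0356).

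**Figure D4:**
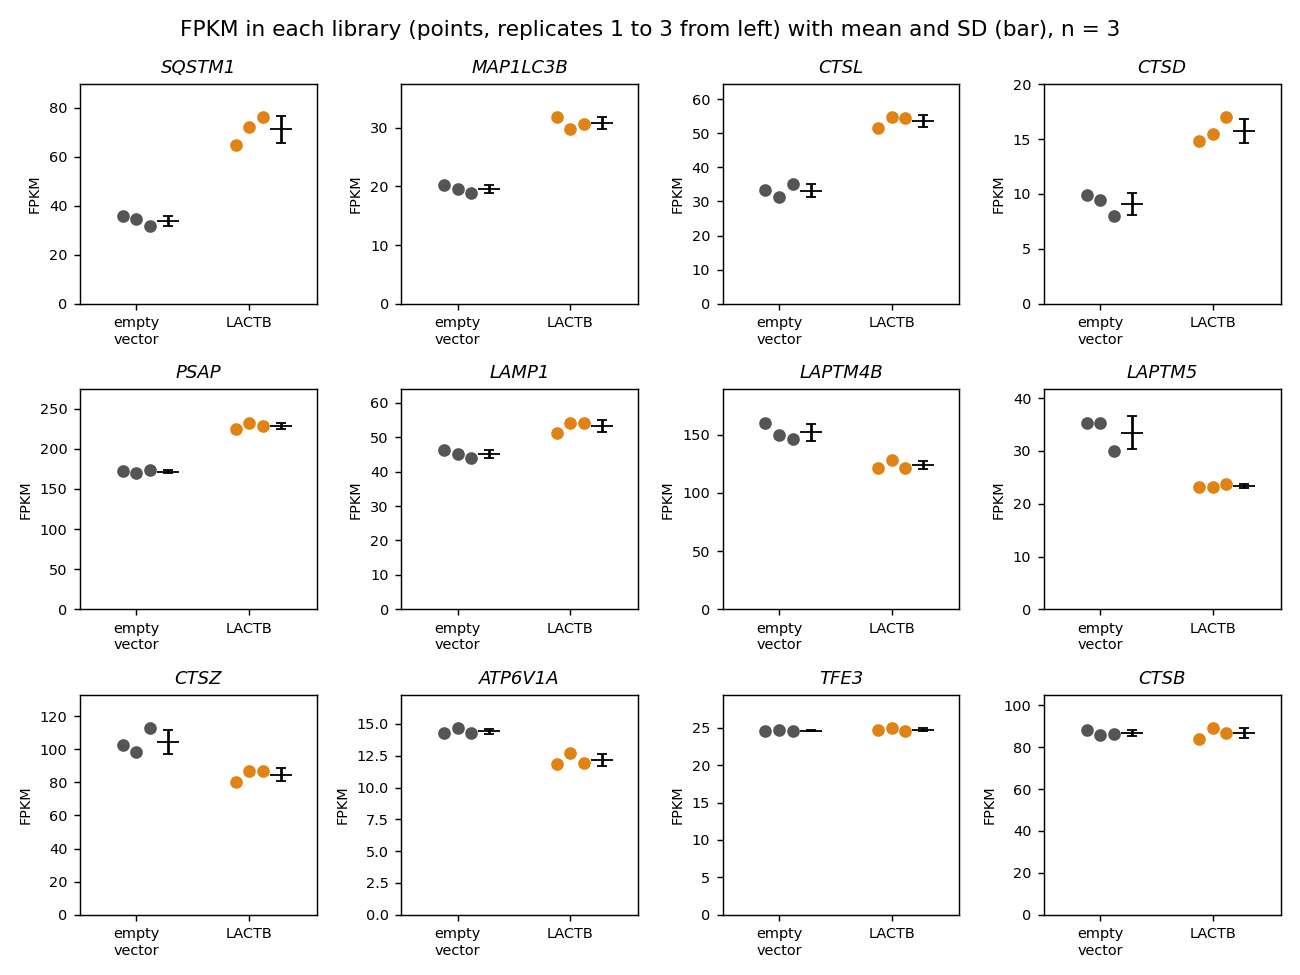
FPKM (y axes, starting at 0) of 12 genes in each library, with empty vector in grey and LACTB in orange, and the mean and SD of each group as a bar (n = 3). SQSTM1, MAP1LC3B, CTSL, CTSD, PSAP and LAMP1 lie higher in all 3 LACTB libraries, LAPTM4B, LAPTM5, CTSZ and ATP6V1A lower, and TFE3 and CTSB overlap.

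Of the 6 other hydrolases and their helpers, 4 rose (PSAP, GAA, NEU1 and GRN), LIPA fell and HEXA did not pass. The calls on NEU1 and GRN were lost with single libraries left out. PSAP, the precursor of the saposins that present lipids to hydrolases, had the highest FPKM of the 44 genes in LACTB cells. It was at 172, 169 and 173 FPKM with empty vector and at 225, 232 and 229 FPKM with LACTB. The gap was many times the spread within either group (1.33-fold; log2 fold change 0.41, SE 0.038; limma, adjusted p = 0.000387). GAA, the acid alpha-glucosidase that degrades glycogen, was at 5.13, 4.76 and 4.49 FPKM and at 6.28, 6.84 and 7.28 FPKM. It too did not overlap (1.42-fold; log2 fold change 0.43; limma, adjusted p = 0.00359).

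NEU1, the lysosomal sialidase, was at 3.32, 2.48 and 2.83 FPKM with empty vector and at 3.63, 4.41 and 4.197 FPKM with LACTB, and rose 1.42-fold (log2 fold change 0.39, SE 0.097; limma, adjusted p = 0.0209). GRN, which encodes progranulin, a secreted and lysosomal glycoprotein, was at 69.2, 67.4 and 55.8 FPKM and at 77.3, 84.7 and 84.6 FPKM, and rose 1.28-fold (log2 fold change 0.36; limma, adjusted p = 0.0187). In GRN, empty vector replicate 3 was the low library. Both calls changed with single libraries. NEU1 lost its call without empty vector replicate 2 (adjusted p = 0.0561) or 3 (0.0502) or LACTB replicate 2 (0.0744) or 3 (0.0672), and GRN without LACTB replicate 2 (adjusted p = 0.0673) or 3 (0.0634). LIPA, the acid lipase that frees cholesterol from its esters, fell 1.19-fold from 13.6 ± 0.591 to 11.4 ± 0.177 FPKM (limma, adjusted p = 0.00773), a call lost as TPM (adjusted p = 0.0797). HEXA, a subunit of beta-hexosaminidase, overlapped between the groups at 2.09 ± 0.157 and 2.40 ± 0.159 FPKM (limma, adjusted p = 0.17), although voom on recovered reads gave an adjusted p of 0.0329. Exons of another gene on the same strand, AC009690.1, hold 33.9% of the coding bases of HEXA.

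None of the 4 V-ATPase genes in the list rose. ATP6V1A, the catalytic subunit of the pump, fell 1.185-fold from 14.4 ± 0.219 to 12.2 ± 0.504 FPKM (limma, log2 fold change -0.23, adjusted p = 0.00793). ATP6V1H, ATP6V0D1 and the accessory protein gene ATP6AP1 had overlapping groups, with log2 fold changes of only 0.04, 0.06 and 0.03 (adjusted p by limma 0.47, 0.481 and 0.766).

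A wider list of 163 other genes of the same systems was put together from general knowledge, with earlier results of these data known. Its shares are thus no independent test either. Of its 132 tested genes, 34 rose (25.8%) and 11 fell (8.33%), against the 14.8% and 17.2% of all tested genes, with a median log2 fold change of 0.08. Without LACTB replicate 2, 22 rose. Of 26 further genes of the autophagy machinery, 3 rose and 3 fell (median -0.01). WDR45, a relative of WIPI1, rose from 3.002 ± 0.333 to 5.14 ± 0.147 FPKM, and 2 membrane protein genes that help the autophagosome to form fell, TMEM41B from 13.4 ± 0.64 to 9.77 ± 0.242 FPKM and VMP1 from 41.7 ± 2.54 to 30.8 ± 1.19 FPKM (limma, adjusted p = 0.000928, 0.00103 and 0.00158). The PI3-kinase complex gene NRBF2 rose 1.13-fold, a call lost without empty vector replicate 1 or 2 or LACTB replicate 2 or 3 (limma, adjusted p = 0.0656 to 0.0982).

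Of 13 further receptors of selective autophagy, 4 rose (30.8%) and 2 fell (15.4%), against 14.8% and 17.2% of all tested genes. OPTN, optineurin, rose from 21.1 ± 0.142 to 26.9 ± 0.392 FPKM and the endosomal adaptor gene TOLLIP from 4.05 ± 0.524 to 6.57 ± 0.27 FPKM. NCOA4, the receptor that brings ferritin to the lysosome, fell from 82.9 ± 1.87 to 69.4 ± 2.92 FPKM and the mitochondrial receptor gene BNIP3 from 17.0 ± 0.645 to 14.1 ± 0.858 FPKM. BNIP3 lost its call as TPM (adjusted p = 0.0625). The 4 adjusted p-values of limma ran from 0.000649 to 0.0128.

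In the control of TFEB and mTORC1, 7 of 24 tested genes rose (29.2%) and 1 fell (4.17%), against 14.8% and 17.2% of all tested genes. The largest rises of the whole wider list were those of SESN2 and DDIT4, stress-induced genes whose proteins restrain mTORC1. SESN2 was at 8.25, 8.54 and 6.78 FPKM with empty vector and at 32.2, 33.7 and 33.8 FPKM with LACTB, and DDIT4 went from 4.51 ± 0.152 to 18.7 ± 2.33 FPKM (limma, adjusted p = 1.08e-05 and 1.75e-05). PRKAA1, a catalytic subunit of the energy-sensing kinase AMPK, fell 1.12-fold (limma, adjusted p = 0.0397), a call lost without any 1 library other than LACTB replicate 1 (adjusted p = 0.0503 to 0.122). MITF, the third factor named above, was at 0.657 ± 0.0787 and 0.864 ± 0.0517 FPKM and was not tested.

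Of 30 further lysosomal hydrolase genes tested, 6 rose (20%) and 3 fell (10%), shares near the 14.8% and 17.2% of all tested genes. The risen genes with the smallest p, though not the largest ratios, were the peptidase gene TPP1 (7.93 ± 0.616 to 12.001 ± 0.25 FPKM) and the acid nuclease gene DNASE2 (7.52 ± 0.466 to 10.1 ± 0.557 FPKM). The smallest p among those that fell belonged to CTSC, cathepsin C, at 12.1 ± 0.199 and 10.4 ± 0.22 FPKM, a call lost as TPM (limma, adjusted p = 0.0703), and to GUSB, beta-glucuronidase. GUSB was 1.14-fold lower, a call lost without empty vector replicate 1 or 2 or LACTB replicate 2 or 3 (limma, adjusted p = 0.0876 to 0.0936). For membrane and sorting genes, 9 of 27 rose (33.3%) and 2 fell (7.41%). IGF2R, the large mannose 6-phosphate receptor, rose from 17.6 ± 0.408 to 21.2 ± 0.432 FPKM. SORT1, the sorting receptor sortilin, had the largest fall of the wider list, from 8.44 ± 0.362 to 3.72 ± 0.131 FPKM (limma, log2 fold change -0.999, adjusted p = 2.48e-05), and LITAF was 1.254-fold lower.

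The further V-ATPase subunits did not follow ATP6V1A. Of 12 tested, 5 rose (41.7%) and none fell, against 14.8% and 17.2% of all tested genes. ATP6V1B2, a partner of ATP6V1A in the catalytic ring, rose from 9.85 ± 0.44 to 13.7 ± 0.274 FPKM (limma, adjusted p = 0.00064) and ATP6V1E1 of the stalk from 58.5 ± 0.979 to 75.0 ± 5.12 FPKM (limma, adjusted p = 0.00342). Subunits of 1 pump thus differed in direction between the libraries compared here.

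**Figure D5:**
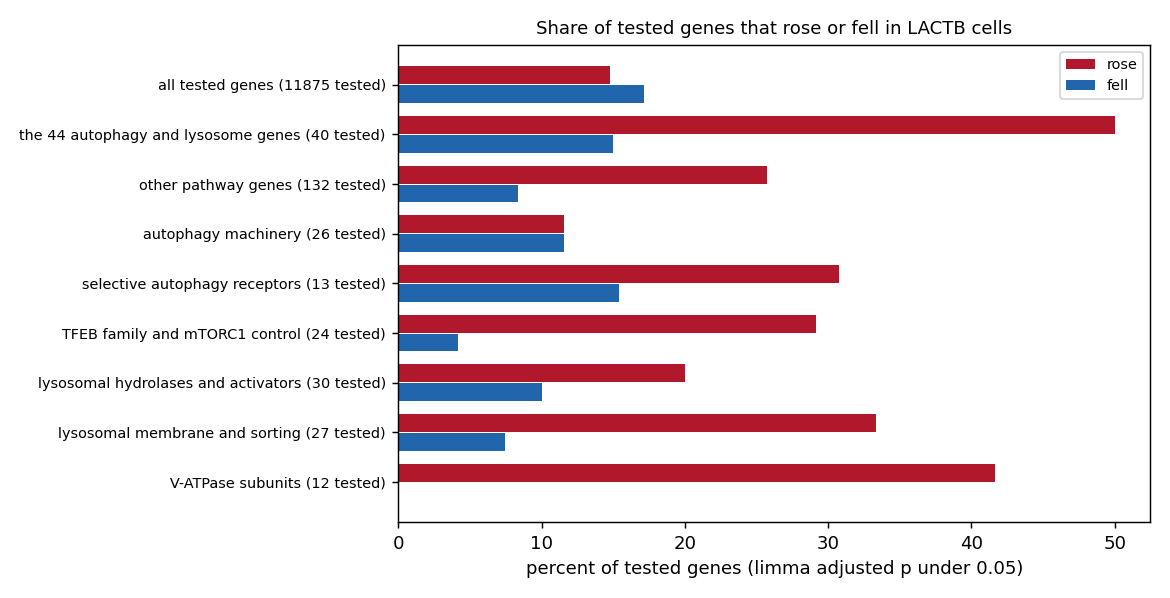
Percent of tested genes that rose (red) or fell (blue) at a limma adjusted p under 0.05, for all tested genes, the 44 genes, the wider list of 163 genes and its 6 parts, with the number tested in brackets. Of the 40 tested genes of the list 20 rose and 6 fell; the wider list shows 25.8% and 8.33%, and all tested genes 14.8% and 17.2%.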

How the data were processed

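The authors deposited 1 file per library with FPKM for 58735 genes; the tools named, per the submitters' processing notes, were DESeq2 1.16.1, HISAT2 2.0.5 and featureCounts 1.5.0-p3, on GRCh38, and which did what is not stated there. Strand use and annotation were not given in the sources used here. Exon lengths came from GENCODE 29. FPKM times exon length gave whole numbers of reads, after division by a per-library step, for 100% of values above 0 (tolerance 0.1 reads).

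Limma 3.58.1 in R 4.3.3 (eBayes with trend) was run on log2(FPKM + 1) for genes whose mean reached 1 FPKM. Fold changes on this scale understate those of low genes; "fold" without log2 is the ratio of mean FPKM. Tested on simulated data for this comparison (11881 genes), it called 9 of 47 genes changed 1.25-fold, 37 of 46 at 1.5-fold, 45 of 48 at 2-fold and 48 of 48 at 4-fold, with 5 of 11692 unchanged genes called. The simulation changed a far smaller share of genes than was called in the real libraries. It also gave every gene the same spread beyond counting noise, so these rates need not hold for the real libraries. Chi-square per degree of freedom between libraries of 1 group was 2.02 to 12.4, so none was a copy of another.

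Values in every library are given for genes that passed with a log2 fold change of 0.25 or more in either direction, and for SQSTM1, MAP1LC3B, TFEB, TFE3, LAMP1 and LAMP2; the wider lists are named by up to 2 risen and 2 fallen genes with the smallest p, apart from a gene whose values are not reported here. The 44 genes and the lists were chosen with earlier results of these data known, and the motifs and printed stretches after the calls were seen. Protein sequences were not used here. There were 17 alternatives: another pseudocount, filters, scalings, eBayes settings and threshold, voom, a replicate block and each library left out.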

Additional observations from a re-analysis of the deposited data

How the results depend on the processing

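No gene among the 26 called changed direction under any of the 17 alternatives. Of the 20 that rose 11 kept their call in all of them, and of the 6 that fell 3 did. Among genes that did not pass, the sign of the log2 fold change differed in 4. That of NBR1, -0.0034, was 0.0203 as TPM, 0.0543 after quantile normalization and 0.0294 with voom, and -0.0231 to 0.0085 with 1 library left out. That of CTSB, -0.00098, was 0.0229, 0.0769 and 0.0318 in the same settings, and -0.0205 to 0.0205 with 1 library left out. That of ATG9A, -0.0274, was 0.0010 with voom and -0.0955 to 0.0199 with 1 library left out, and that of ATP6AP1, 0.0264, was -0.0255 to 0.0688 with 1 library left out.

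Of the 44 genes 13 rose without a filter and 11 at an adjusted p under 0.01, against 20, and 3 fell as TPM, against 6. With 1 library left out, 12 to 18 rose and 5 to 6 fell. Of the wider list 20 rose without a filter and 16 at the stricter threshold, against 34, and 6 fell as TPM and 6 at the stricter threshold, against 11; with 1 library left out, 22 to 31 rose and 8 to 10 fell. Voom, which used read totals in place of the effective sizes, called 51 of the wider list as risen. Its median log2 fold change over all tested genes was 0.021, against -0.010 in the main fit. Of all genes, 1155 rose at a mean of at least 5 FPKM and 847 at the stricter threshold, and 1295 fell as TPM and 1004 at the stricter threshold; with 1 library left out, 1115 to 1505 rose and 1388 to 1800 fell. The number of genes tested also moved, to 30629 without a filter and 16070 as TPM, against 11875. As TPM, the limit of 1 and the added 1 applied to the rescaled values, so scaling and filter changed together. Fewer genes were tested at 5 FPKM, and the stricter threshold can only lower a count. The causes of these moves were not tested.

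The share of MAP1LC3B in the ATG8 family was 7.02 to 9.42 percentage points higher in LACTB cells with 1 library left out, and the difference for GABARAPL2 was -7.54 to -6.67 points.

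Same-numbered replicates of the 2 groups did not deviate together (correlations of -0.126, 0.0194 and -0.0438), so no pairing by number showed in the values. Whether same-numbered libraries were prepared together cannot be told from this. With the replicate block 15 of the 44 genes rose and 5 fell (ULK1, ATG13, MCOLN1, CTSA, NEU1 and ATG5 lost their calls), 23 and 8 of the wider list, and 1155 and 1324 of all genes. For 2 kb of exons, 3 reads are worth 0.0827 to 0.0872 FPKM here, so ULK2 lies at or under what can be measured.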
